A study of Mus musculus with 16 samples.

Results

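The TRBV13 genes encode the beta chains known serologically as Vbeta8, one of the most used families of T cell receptor (TCR) beta variable segments in mouse. The cells described here carried exactly 1 TRB chain, labelled TRBV13-1, TRBV13-2, TRBV13-3 or with the joined label TRBV12-2+TRBV13-2, and 1 or 2 TRA chains. The joined label was counted as TRBV13-2. Cells with the invariant natural killer T (NKT) alpha chain, TRAV11 or TRAV11D joined to TRAJ18, were left out. These rules gave 10056 of 37877 kept cells (26.5%), or 8029 of 30147 clonotypes (26.6%). TRBV13-1 had 2423 cells in 1934 clonotypes, TRBV13-2 had 5186 cells in 4130 clonotypes, and TRBV13-3 had 2447 cells in 1965 clonotypes. Cells of a library that had identical TRB and main TRA chains (V segment, J segment and CDR3 nucleotides) made up a clonotype.

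CD44high CD4+ T cells, the antigen-experienced CD4+ fraction, had been sorted from mouse spleen, and their TCR chains were read from 5′ single-cell libraries. The 4 groups were KO mice given anti-4-1BB, KO mice given IgG, WT mice given anti-4-1BB and WT mice given IgG, and each of 2 experiments, labelled as batches ASD1 and ASD2, gave 1 library per group. KO mice were Eomesfl/fl-CD4Cre in experiment 1 (Cre driven in T cells by the CD4 promoter) and Eomesfl/fl-ERT2CD4Cre with tamoxifen (an inducible Cre) in experiment 2. WT mice were Eomes-IRES-GFP reporter mice in both experiments, and those of experiment 2 also received tamoxifen, so the kind of knockout, tamoxifen and the experiment cannot be told apart. Loss of Eomes likewise cannot be told apart from the reporter and the Cre, which differed between WT and KO mice in both experiments. Every mouse received an antibody depleting NK1.1+ cells (50 µg, days -2 and 5) and Vk12653 myeloma cells, from the Vk*Myc model, at day 0. The agonistic antibody against the costimulatory receptor 4-1BB (CD137), or control IgG, was given at 20 µg on days 10, 13 and 16, and spleens were taken at day 18. The labels used here give no age, sex or number of mice for a library, so p-values measure the spread between these libraries, which may be technical.

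A TCR beta chain is built in the thymus by joining a V, a D and a J segment, with bases trimmed and added at the joints. The first and second complementarity-determining regions (CDR1 and CDR2) are encoded in the V segment and mainly contact the MHC molecule, while CDR3 spans the joint and mainly contacts the peptide. In mouse, beta chains of the Vbeta8 family are bound by several bacterial superantigens, and TRBV13-2 is the beta V gene most used by invariant NKT cells. Receptors with the invariant NKT alpha chain are in none of the values for kept cells and clonotypes below. Values over all contigs, UMIs, reads or barcodes of a library were taken before they were left out.

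The 3 genes lie close together on mouse chromosome 6 (GRCm38.p6), each annotated as a V segment: TRBV13-1 at chr6:41116036-41116468, TRBV13-2 at chr6:41121396-41121832 and TRBV13-3 at chr6:41130147-41130585. TRBV12-1 (chr6:41113567-41114067) and TRBV12-2 (chr6:41118864-41119364) lie next to TRBV13-1 and TRBV13-2, on the side of the lower coordinate. The following sequences were read from the contigs and show what separates the 3 genes in the loops that touch MHC and peptide. Capitals mark bases at which the 3 genes are not all alike.
TRBV13-1 CDR1: aataGccaCAacTaC
TRBV13-2 CDR1: aataAccaCAacAaC
TRBV13-3 CDR1: aataAccaTGacTaT
TRBV13-1 CDR2: tcatatgGTgctgGcaAc
TRBV13-2 CDR2: tcatatgGTgctgGcaGc
TRBV13-3 CDR2: tcatatgTCgctgAcaGc
TRBV13-1 CDR3 start: tgtgccagcAgtga
TRBV13-2 CDR3 start: tgtgccagcGgtga
TRBV13-3 CDR3 start: tgtgccagcAgtga

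Over the 270 bases from framework 1 to framework 3, TRBV13-2 and TRBV13-3 were 91.5% identical (23 bases differed), TRBV13-1 and TRBV13-2 were 88.1% identical (32 bases) and TRBV13-1 and TRBV13-3 were 84.8% identical (41 bases). The labels therefore rested on many bases. Each label carried its own CDR1 in 99.7% (joined label, 8484 contigs), 99.8% (TRBV13-1, 5167 contigs), 99.7% (TRBV13-2 alone, 1197 contigs) and 99.96% (TRBV13-3, 5160 contigs) of contigs. A gene's own CDR1 was the commonest among contigs with its label, and that of TRBV13-2 alone served for the joined label. High agreement was thus partly built in for the labels of single genes. The joined label held 4622 of the 5186 TRBV13-2 cells (89.1%), and between 85.8% and 92.4% in each library. Its contigs were longer, with a median of 564 bases against 524 for TRBV13-2 alone, and had more unique molecular identifiers (UMIs) in every library. Of the 419 TRBV13-2 clonotypes of 2 or more cells, 113 (27.0%) held cells with both labels, so in these both labels stood for 1 receptor.

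Depth ranged from 80551 to 445027 TCR UMIs, from 8039901 to 15045635 reads and from 2647 to 8862 kept cells per library. The median TRB contig of a library rested on 10 to 17 UMIs, and anti-4-1BB libraries had the higher median in both genotypes of both experiments. Of 71086 cell barcodes, 3198 (4.50%) occurred in 2 or more libraries, but 0 TRBV13 chains occurred under 1 barcode in 2 libraries, and 4 TRBV13 paired receptors were identical in 2 or more libraries. TCR contigs give no level of Cd4 or of Eomes, and gene expression was not analysed here, so neither the cell label nor the knockout was checked on RNA. The mucosal-associated invariant T cell alpha chain, TRAV1 joined to TRAJ33, was found in 2 TRBV13 cells.

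TRBV13-2 was the most used of all beta V genes in the mean of the 8 libraries, with 14.1 ± 1.11% of clonotypes (SD, n = 8). TRBV13-3 (6.65 ± 1.05%) and TRBV13-1 (6.49 ± 1.14%) had ranks 4 and 6 and did not differ beyond their spread, with TRBV1 (6.50%) between them. TRBV3 (10.3%) and TRBV31 (7.85%) ranked between TRBV13-2 and TRBV13-3. Together the 3 genes took 27.2 ± 2.08% of clonotypes, between 23.4% and 29.8% of each library. Counting error was smaller than this spread: the half-width of the 95% Clopper-Pearson interval was 0.961 to 1.90 percentage points for the family.

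In experiment 1, TRBV13-1 took 4.71% of clonotypes in the KO anti-4-1BB library, against 6.09% in the KO IgG library, and 5.28% in the WT anti-4-1BB library, against 7.40% in the WT IgG library. In experiment 2 its shares were 7.88% with anti-4-1BB and 6.58% with IgG in KO mice, and 6.25% with anti-4-1BB and 7.68% with IgG in WT mice. TRBV13-1 was thus lower with anti-4-1BB in 3 of the 4 pairs, and the KO mice of experiment 2 were the exception. TRBV13-2 took 14.4% and 15.4% (anti-4-1BB and IgG, KO) and 11.7% and 13.8% (anti-4-1BB and IgG, WT) in experiment 1. In experiment 2 it took 14.2% and 14.1% in KO mice and 15.1% and 14.1% in WT mice, again anti-4-1BB before IgG. TRBV13-2 moved little: outside the experiment 1 WT anti-4-1BB library, its share stayed between 13.8% and 15.4%. TRBV13-3 took 6.48% with anti-4-1BB and 8.29% with IgG in KO mice of experiment 1, and 6.40% with anti-4-1BB and 8.19% with IgG in WT mice. In experiment 2 the TRBV13-3 shares were 5.78% and 5.76% in KO mice and 6.68% and 5.64% in WT mice, anti-4-1BB and IgG in turn. The IgG libraries of experiment 1 thus stood above all 6 others for TRBV13-3. How many other segments showed this split was not counted, so no conclusion is drawn from it.

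**Figure D1:**
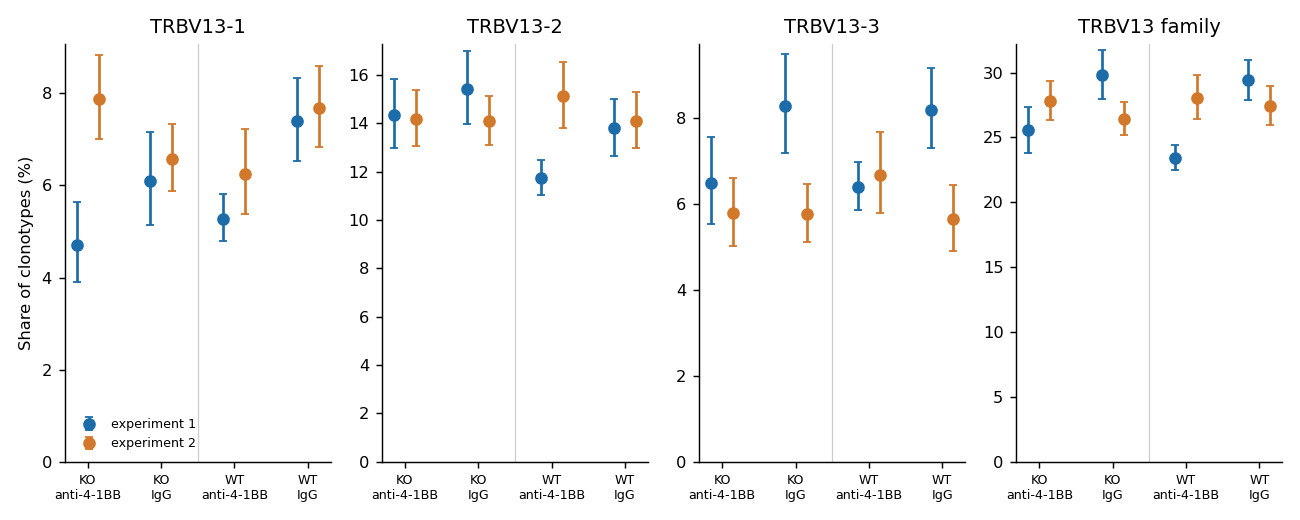
Share of clonotypes (%, y axis) taken by each TRBV13 gene and by the family in the 4 groups (x axis); each point is 1 library, coloured by experiment, with its 95% Clopper-Pearson interval. Family shares ran from 23.4% to 29.8%, and in experiment 1 both anti-4-1BB libraries were below both IgG libraries for TRBV13-1 and TRBV13-3. How many other segments separated in this way was not counted.

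Eomes is a T-box transcription factor of cytotoxic and memory T cells. Whether these genes differed with anti-4-1BB or between KO and WT mice was tested with edgeR's quasi-likelihood test on clonotype counts. The fit was run over all V and J segments of both chains, with Benjamini-Hochberg adjustment over the 151 segments tested. None of the 3 genes passed an adjusted p of 0.05 in any of the 10 contrasts, nor did any of them at an unadjusted p under 0.05 in the contrast of anti-4-1BB with IgG over all libraries. The background was as low: that contrast called 0 of 151 segments (0%), with 2 at an unadjusted p under 0.05. The contrast of KO with WT called 1 segment (0.662%), an alpha V segment. DESeq2 and the other alternatives also called none of the 3 genes, and the lowest adjusted p of a TRBV13 gene over 160 combinations of contrast and setting was 0.182.

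With anti-4-1BB, the log2 fold change of clonotype share against IgG was -0.20 ± 0.19 (SE) for TRBV13-1, -0.05 ± 0.14 for TRBV13-2 and -0.14 ± 0.19 for TRBV13-3 (4 against 4 libraries; edgeR adjusted p between 0.927 and 0.965). TRBV13-1 averaged 6.03 ± 1.39% with anti-4-1BB and 6.94 ± 0.732% with IgG (SD, n = 4 each). For KO against WT the log2 fold changes were -0.06 ± 0.19, 0.08 ± 0.14 and -0.04 ± 0.19 for TRBV13-1, TRBV13-2 and TRBV13-3, each with an edgeR adjusted p of 0.992. TMM scaling turned the sign of the TRBV13-2 value for treatment and of the TRBV13-1 and TRBV13-3 values for genotype, so none of these has a settled direction. With KO and WT taken apart the picture was the same, with log2 fold changes for anti-4-1BB between -0.39 and -0.06 in WT mice and between -0.19 and -0.01 in KO mice.

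Taken by experiment, with KO and WT libraries pooled, the treatment values differed more. Within experiment 1, TRBV13-1 had a log2 fold change of -0.43 ± 0.18 (SE), with an unadjusted p of 0.0476 and an adjusted p of 0.514 by edgeR. TRBV13-3 had -0.36 ± 0.13 (unadjusted p 0.0290, adjusted p 0.399 by edgeR) and TRBV13-2 had -0.17 ± 0.15. Of all 151 segments, 14 had an unadjusted p under 0.05 by edgeR in this contrast, and 2 of these were TRBV13 genes. For TRBV13-1 and TRBV13-3 both anti-4-1BB libraries lay below both IgG libraries. How many of the other segments separated the libraries in this way was not counted, so no conclusion is drawn from it. Within experiment 2 the values were -0.01 ± 0.18, 0.05 ± 0.14 and 0.12 ± 0.13 for TRBV13-1, TRBV13-2 and TRBV13-3, with edgeR adjusted p between 0.732 and 0.993. The difference of the treatment effects, experiment 2 minus experiment 1, was 0.48 ± 0.19 for TRBV13-3 (edgeR unadjusted p 0.0354, adjusted p 0.243) and did not pass for any of the 3 genes. For this difference, 25 of 151 segments had an unadjusted p under 0.05 by edgeR, and 1 of them was a TRBV13 gene. The unadjusted values of the TRBV13 genes depended on the fit. With genotype as a term, edgeR gave an unadjusted p of 0.0653 for TRBV13-1 and 0.0450 for TRBV13-3 in experiment 1, and 0.0534 for the TRBV13-3 difference between the experiments. With TMM factors the log2 fold changes in experiment 1 were -0.29 for TRBV13-1 and -0.22 for TRBV13-3, and 0 of the 3 genes had an unadjusted p under 0.05 there, as with DESeq2, with counts of cells, or without the KO anti-4-1BB, WT anti-4-1BB or WT IgG library of that experiment. Each of these contrasts by experiment called 0 or 1 of 151 segments (0% or 0.662%). The called one in experiment 1 was TRBV12-1, the neighbour of TRBV13-1.

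TRBV12-1 took 8.42% of clonotypes in the experiment 1 KO anti-4-1BB library, against 0.921% in its IgG library, and 6.66% in the WT anti-4-1BB library, against 1.85% in its IgG library. In the 4 libraries of experiment 2 it took 0.655% to 1.17%. Its log2 fold change within experiment 1 was 2.37 ± 0.29 (SE, edgeR adjusted p 0.00787). Shares of a library sum to a whole, so the shares of different genes are not independent. With TRBV12-1 and TRBV12-2 left out of the total, a setting added after the values were seen, the family's mean difference between anti-4-1BB and IgG in experiment 1 was -2.84 percentage points, against -5.12 with them. The pairs behind this mean were unequal: the KO libraries then had 29.3% with anti-4-1BB and 30.3% with IgG (-0.965 points, against -4.26 with TRBV12 kept), and the WT libraries had 25.7% and 30.4% (-4.71 points, against -5.97). Of a list of 17 other beta V genes that each form a family on their own, 15 were tested, and 0 were called higher and 0 lower with anti-4-1BB. Over all libraries, their median log2 fold change was -0.12, beside -0.14 for the TRBV13 genes and -0.10 for all 21 TRBV segments tested. Within experiment 1 the medians were -0.15, -0.36 and -0.17 in the same order, and within experiment 2 they were -0.11, 0.05 and -0.07.

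As a description of which genes moved alike over the 8 libraries, the log2 share of TRBV13-1 was most like that of TRBV1 (Pearson r = 0.886), TRBV17 (0.828) and TRBV14 (0.774). TRBV13-2 was most like TRBV16 (0.801), TRBV10 (0.652) and TRBV30 (0.614), and TRBV13-3 most like TRBV29 (0.712), TRBV15 (0.664) and TRBV31 (0.664). The 3 TRBV13 genes were less like each other, with r of 0.208 (TRBV13-1 and TRBV13-2), -0.150 (TRBV13-1 and TRBV13-3) and 0.241 (TRBV13-2 and TRBV13-3). The points share libraries and totals, and TRBV12-1 was the least like TRBV13-1 (-0.799) and TRBV13-2 (-0.591).

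The beta joining segments are ordered along the chromosome in 2 clusters, TRBJ1 and TRBJ2, each behind its own D segment. Most chains of every TRBV13 gene used TRBJ2, with TRBJ2-7 (19.1 ± 3.21%, 17.3 ± 1.65% and 15.8 ± 1.95% of TRBV13-1, TRBV13-2 and TRBV13-3 clonotypes; SD, n = 8) and TRBJ2-5 (14.8 ± 2.87%, 15.6 ± 1.20% and 13.8 ± 2.03%) ahead of the rest. The TRBJ2 share was 71.8 ± 2.60% for TRBV13-1, 67.9 ± 2.71% for TRBV13-2 and 67.0 ± 3.50% for TRBV13-3. TRBV13-1 exceeded TRBV13-2 in 7 of 8 libraries, by 3.84 ± 4.09 percentage points (SD), with a two-sided exact permutation p of 0.0156 over all sign patterns of the libraries and an adjusted p of 0.075 over the 24 tests of this kind. It exceeded TRBV13-3 in 7 of 8 libraries by 4.80 ± 5.01 points (exact permutation p 0.0312, adjusted p 0.12). Neither difference passed the adjustment.

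Within the first cluster, TRBJ1-6 and TRBJ1-5 were the least used. TRBJ1-6, the last segment of the first cluster (chr6:41535554-41535606), took 1.77 ± 0.453% of TRBV13-1 clonotypes, 4.34 ± 2.44% of TRBV13-2 clonotypes and 3.28 ± 1.07% of TRBV13-3 clonotypes. TRBJ1-5 took 1.85 ± 0.927%, 3.17 ± 0.913% and 2.65 ± 1.53%. The other segments of the first cluster ran from 7.71 ± 2.38%, 7.17 ± 1.86% and 8.49 ± 1.24% (TRBJ1-1) to 6.38 ± 2.54%, 5.50 ± 0.909% and 7.29 ± 0.619% (TRBJ1-4), with TRBJ1-2 at 6.21 ± 1.76%, 5.90 ± 1.95% and 4.12 ± 1.59% and TRBJ1-3 at 4.30 ± 2.06%, 5.99 ± 1.01% and 7.20 ± 2.26%. In the second cluster TRBJ2-1 took 9.28 ± 2.16%, 10.1 ± 0.955% and 7.93 ± 3.22%, and TRBJ2-2 took 8.75 ± 2.40%, 6.26 ± 1.18% and 6.46 ± 1.94%. TRBJ2-3 took 9.90 ± 2.18%, 8.23 ± 1.42% and 11.9 ± 3.21%, and TRBJ2-4 took 9.95 ± 1.68%, 10.4 ± 1.06% and 11.1 ± 1.75%. In each of these sentences the genes stand in the order TRBV13-1, TRBV13-2, TRBV13-3.

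**Figure D2:**
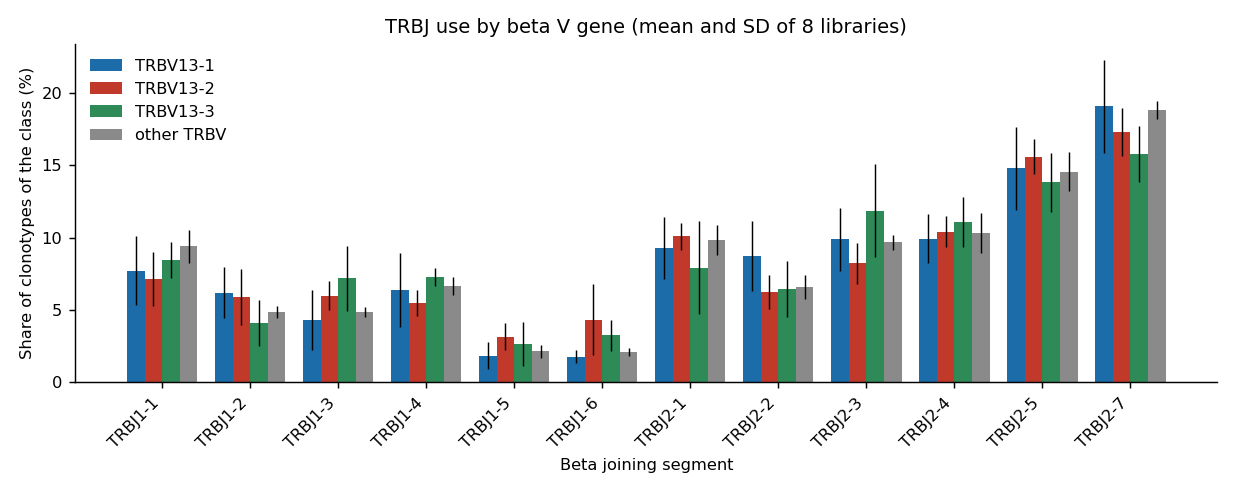
Share of clonotypes (%, y axis) joined to each TRBJ segment (x axis) for the 3 TRBV13 genes and for all other TRBV genes; bars are means and lines SDs of 8 libraries. TRBJ1-6 stands at 1.77% for TRBV13-1 and 4.34% for TRBV13-2.

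Partner use was compared inside libraries by edgeR's quasi-likelihood test with the library as a block. Between TRBV13-1 and TRBV13-2, 1 of 114 partner segments was called (0.877%), and it was TRBJ1-6. Its share was lower in TRBV13-1 clonotypes in 8 of 8 libraries, with a log2 fold change of -1.28 ± 0.29 (SE, edgeR adjusted p 0.0188). This call was lost in 4 of 17 alternatives. They were the omission of the experiment 2 KO anti-4-1BB library (log2 fold change -0.99, edgeR adjusted p 0.0745) or of both KO libraries of that experiment (-0.83, edgeR adjusted p 0.169), counts of cells (-1.0, edgeR adjusted p 0.268) and the omission of the joined label (-1.14, edgeR adjusted p 0.331). Between the family and all other TRBV genes, 2 of 134 segments were called (1.49%). TRBJ1-6 was one: it took 3.49 ± 1.13% of TRBV13 clonotypes and 2.12 ± 0.289% of other clonotypes, was higher in the family in 8 of 8 libraries and had a log2 fold change of 0.71 ± 0.16 (SE, edgeR adjusted p 0.0466). TRBV13-1 on its own stood below other TRBV genes in 7 of 8 libraries (1.77 ± 0.453% against 2.12 ± 0.289%). The call of TRBJ1-6 for the family was lost in 8 of 17 alternatives. Its log2 fold change was 0.41 (edgeR adjusted p 0.0976) without both KO libraries of experiment 2 and 0.35 (edgeR adjusted p 0.172) with the joined label left out. It was 0.65 to 0.78 with no filter, with counts of cells, or without 1 of 4 libraries (edgeR adjusted p 0.0507 to 0.174). These libraries were KO or WT anti-4-1BB in experiment 1 and KO or WT IgG in experiment 2.

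TRBJ1-6 took 9.24% of TRBV13-2 clonotypes in the experiment 2 KO anti-4-1BB library (46 of 498) and 7.01% in the experiment 2 KO IgG library (46 of 656). In the WT libraries of experiment 2 it took 3.33% (anti-4-1BB) and 2.57% (IgG). In experiment 1 it took 3.52% (KO anti-4-1BB), 3.12% (KO IgG), 3.38% (WT anti-4-1BB) and 2.55% (WT IgG). Both KO libraries of experiment 2 thus stood above the other 6, which did not exceed 3.52%. Among the 36 pairings of a TRBV13 gene with a TRBJ segment this was the largest such gap: the second library was 1.99 times the third, while the next pairing reached 1.30. This ratio measures the very pattern already seen, so the rank is a description and not a test. TRBV13-1 and TRBV13-3 showed no such gap at TRBJ1-6, with 1.44% and 2.61% for TRBV13-1 and 2.46% and 1.87% for TRBV13-3 in the KO anti-4-1BB and KO IgG libraries of experiment 2.

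Some of these receptors had a common CDR3 form. It was chosen after its values were seen and is given as a description, with no test: a CDR3 of 13 residues (39 bases) with aspartate at residue 7, followed by the last 6 residues that TRBJ1-6 encodes. The set had 16 clonotypes in the experiment 2 KO anti-4-1BB library (3.21% of TRBV13-2 clonotypes, 95% Clopper-Pearson interval 1.85 to 5.17%) and 16 in the KO IgG library (2.44%, 1.40 to 3.93%). The other libraries had 1 (WT anti-4-1BB, experiment 2), 3 (WT IgG, experiment 2), 1 (KO anti-4-1BB, experiment 1) and 0 in each of the remaining 3 libraries of experiment 1, for which a count of 0 allows up to 0.338% to 0.852%. Outside the set, TRBJ1-6 still took 6.22% and 4.69% of TRBV13-2 clonotypes in the KO anti-4-1BB and KO IgG libraries of experiment 2, against 1.99 to 3.38% elsewhere. The set was thus part of the gap and not all of it.

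The 32 set clonotypes of these KO libraries used 20 nucleotide and 11 amino acid sequences of CDR3 beta, of which 3 nucleotide sequences occurred in both libraries, and 0 paired receptors were shared between them. Residue 5 was aspartate in 22 and glycine in 7 of the 32. Residue 6 was lysine in 11 and threonine in 9. The most frequent sequences follow, together with the end that TRBJ1-6 encodes, and capitals mark the bases of residues 5 and 6.
Set chain in both KO libraries of experiment 2, 5 clonotypes: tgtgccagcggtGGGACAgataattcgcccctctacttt
Set chain in both KO libraries of experiment 2, 4 clonotypes, all with TRAV10: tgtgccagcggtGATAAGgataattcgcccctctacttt
Set chain in the experiment 2 KO anti-4-1BB library, 3 clonotypes, 25 cells: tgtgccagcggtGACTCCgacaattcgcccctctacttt
CDR3 end encoded by TRBJ1-6: ttcctataattcgcccctctacttt

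Many alpha chains of the set used one V gene. A copy of TRAV10 (TRAV10, TRAV10D or TRAV10N, near-identical genes whose labels can be mixed) was used by 18 of the 32 set clonotypes (56.25%), against 4.46% of the other TRBV13-2 clonotypes of the same libraries and 3.69% of those of all libraries. In the 6 other libraries, 2 of the 5 set clonotypes used a TRAV10 copy, both in the WT IgG library of experiment 2. The pairing was thus not limited to KO mice. TRAJ30 was used by 8, TRAJ33 by 4 and TRAJ18 by 3 of the 32, among 17 TRAJ segments in all. The set held 42 cells in the KO anti-4-1BB library, of which the largest clonotype had 23, and 19 cells in the KO IgG library, of which the largest had 2. KO mice of experiment 2 differed from those of experiment 1 in the Cre line and in tamoxifen, and how many mice stood behind them is not in the labels, so genotype, experiment and individual mice cannot be told apart for this set.

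**Figure D3:**
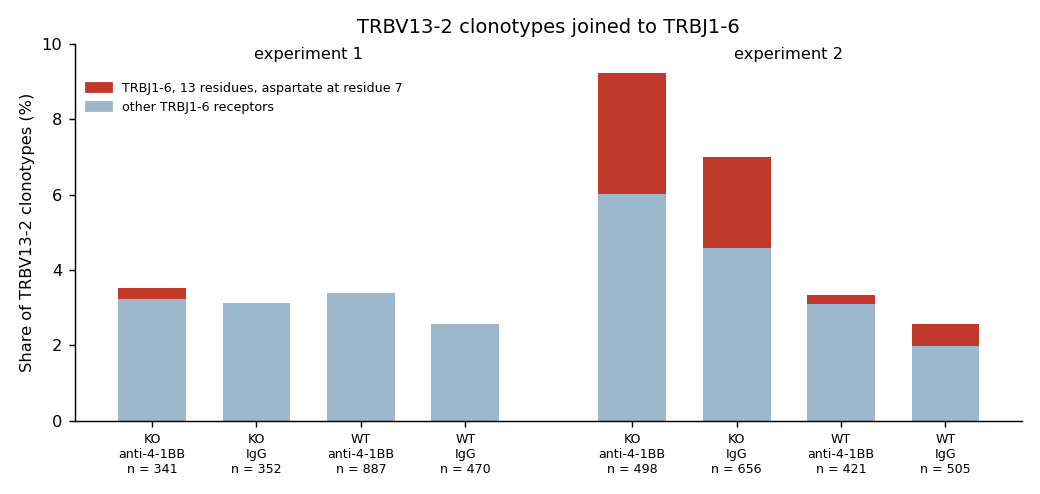
Share of TRBV13-2 clonotypes joined to TRBJ1-6 (%, y axis) in each library (x axis, with the number of TRBV13-2 clonotypes as n); red is the CDR3 form of 13 residues with aspartate at residue 7, blue all other TRBJ1-6 receptors. The KO anti-4-1BB and KO IgG libraries of experiment 2 reach 9.24% and 7.01%, and the other 6 do not exceed 3.52%.

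TRAV7D-2 was the most used alpha V label with each gene, at 8.46 ± 1.49% of TRBV13-1, 7.61 ± 2.58% of TRBV13-2 and 7.80 ± 1.97% of TRBV13-3 clonotypes (SD, n = 8), and with other TRBV genes (6.18 ± 0.374%). TRAJ31 led the alpha J labels of TRBV13-2 (6.12 ± 1.09%) and TRBV13-3 (6.74 ± 1.07%), while TRAJ22 led those of TRBV13-1 (5.92 ± 1.44%). Many TRAV genes of mouse are present in near-identical copies, so a single TRAV label is uncertain, but TRAJ labels are not affected by this.

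The alpha J segments TRAJ39 and TRAJ57 separated TRBV13-1 from TRBV13-3. TRAJ39 took, in KO anti-4-1BB, KO IgG, WT anti-4-1BB and WT IgG libraries of experiment 1, 4.46%, 5.76%, 5.01% and 4.76% of TRBV13-1 clonotypes, against 1.30%, 2.12%, 1.86% and 3.94% of TRBV13-3 clonotypes. In experiment 2, in the same order, it took 2.89%, 3.92%, 7.47% and 6.18% of TRBV13-1, against 1.48%, 1.12%, 3.23% and 1.49% of TRBV13-3 clonotypes. The TRBV13-1 share was the higher in every library. The log2 fold change was 1.23 ± 0.25 (SE, edgeR adjusted p 0.00071), on 95 TRBV13-1 and 41 TRBV13-3 clonotypes. TRAJ57 took 3.12 ± 1.21% of TRBV13-1 clonotypes and 0.896 ± 0.780% of TRBV13-3 clonotypes (SD, n = 8). It was higher with TRBV13-1 in 8 of 8 libraries and was not seen with TRBV13-3 in the WT IgG library of either experiment. Its log2 fold change was 1.56 ± 0.36 (SE, edgeR adjusted p 0.00306), on 58 and 20 clonotypes.

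These were the 2 of 114 partner segments called between TRBV13-1 and TRBV13-3 (1.75%). TRAJ39 was called in all 17 alternatives tried, and TRAJ57 in 16 of them, the exception being the omission of the experiment 1 WT IgG library (edgeR adjusted p 0.0528). TRBV13-2 lay between them for both: TRAJ39 took 3.06 ± 0.805% and TRAJ57 took 2.04 ± 0.570% of its clonotypes. TRAJ39 was higher with TRBV13-1 than with TRBV13-2 in 8 of 8 libraries, at a log2 fold change of 0.67 ± 0.19 (SE), and had an edgeR adjusted p of 0.0531. Other segments with the smallest p in this contrast of TRBV13-1 and TRBV13-3 were TRAJ27 (5.24 ± 1.56% and 3.41 ± 1.30%), TRBJ1-3 (4.30 ± 2.06% and 7.20 ± 2.26%), TRBJ1-6 (1.77 ± 0.453% and 3.28 ± 1.07%) and TRAJ49 (1.71 ± 0.663% and 2.92 ± 1.06%), none of them called.

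**Figure D4:**
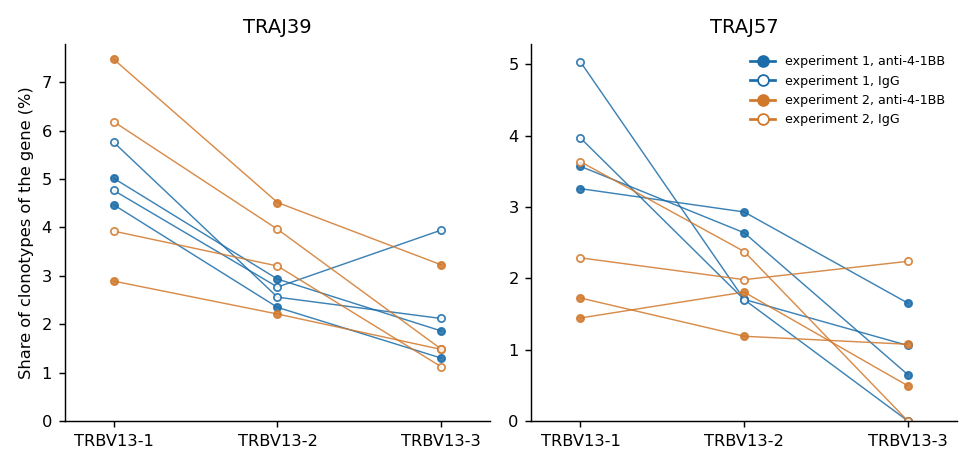
Share of the clonotypes of each TRBV13 gene (x axis) that used TRAJ39 (left) or TRAJ57 (right) in %, with 1 line for each of the 8 libraries; colour gives the experiment, filled points anti-4-1BB and open points IgG libraries. In every library the TRBV13-1 point lies above the TRBV13-3 point, with means of 5.06% and 2.07% for TRAJ39 and of 3.12% and 0.896% for TRAJ57.

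Between TRBV13-3 and TRBV13-2, 2 of 114 segments were called (1.75%), both higher with TRBV13-3. TRAJ40 took 5.35 ± 1.40% of TRBV13-3 and 3.21 ± 1.10% of TRBV13-2 clonotypes, was higher with TRBV13-3 in 8 of 8 libraries and had a log2 fold change of 0.74 ± 0.20 (SE, edgeR adjusted p 0.0367). The alpha segment TRAV13-1 took 5.13 ± 0.767% and 3.19 ± 0.843%, with a log2 fold change of 0.69 ± 0.20 (edgeR adjusted p 0.0444), and was higher with TRBV13-3 in 7 of 8 libraries. The TRAJ40 call was lost in 7 of 17 alternatives. Its log2 fold change there was 1.35 with the joined label left out and 0.60 to 0.77 with DESeq2, with counts of cells, or without 1 of 4 libraries, namely KO or WT anti-4-1BB in experiment 1 and KO anti-4-1BB or WT IgG in experiment 2 (edgeR or DESeq2 adjusted p 0.0574 to 0.395 over the 7). The TRAV13-1 call was lost in 10 of 17. Its log2 fold change was 0.12 with the joined label left out, and 0.57 to 0.80 in the other 9, which were the remaining 6 of those named for TRAJ40, the cells with 1 TRA, and the omission of the experiment 1 WT IgG or the experiment 2 WT anti-4-1BB library (adjusted p 0.0681 to 0.944 over the 10 by edgeR or DESeq2). Not called were TRAV7N-6 (2.27 ± 1.05% and 1.27 ± 0.452%), TRAV12-3 (0.935 ± 0.295% and 2.14 ± 0.673%), TRAJ57 and TRAV6N-6 (0.267 ± 0.226% and 0.946 ± 0.575%).

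Against TRBV13-2, the TRBV13-1 clonotypes used TRBJ2-2, TRAJ57, TRAV4-2 (0.328 ± 0.459% and 1.20 ± 0.459%) and TRAV6N-6 (0.379 ± 0.509% and 0.946 ± 0.575%) at levels that were not called apart. The second segment called between the family and other TRBV genes was TRAV12-1, at 0.839 ± 0.298% of TRBV13 and 0.476 ± 0.151% of other clonotypes. Its log2 fold change was 0.85 ± 0.24 (SE, edgeR adjusted p 0.0466) and it was higher in 7 of 8 libraries, on 69 TRBV13 clonotypes. The call was lost in 10 of 17 alternatives. The log2 fold change was 0.54 with the joined label left out, 0.57 with TRAV copies merged and 0.65 with counts of cells. It was 0.73 to 0.86 in the other 7, which were DESeq2, no filter, and the omission of the KO or WT anti-4-1BB library of experiment 1, the KO or WT IgG library of experiment 2 or both KO libraries of experiment 2 (edgeR or DESeq2 adjusted p 0.0507 to 0.326 over the 10). Close to the threshold but not called were TRAV7D-2 (7.81 ± 1.79% and 6.18 ± 0.374%), TRAV14-2 (1.47 ± 0.332% and 2.14 ± 0.491%), TRBJ1-1 (7.64 ± 1.52% and 9.41 ± 1.14%) and TRAJ48 (1.26 ± 0.566% and 1.73 ± 0.109%), each with an edgeR adjusted p of 0.0551.

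The first residues of CDR3 differed with the V gene. The base at which TRBV13-2 differs turns the serine codon into glycine, and glycine stood at residue 4 in 95.7 ± 1.10% of TRBV13-2 clonotypes, against 1.01 ± 0.520% of TRBV13-1, 1.35 ± 0.552% of TRBV13-3 and 1.25 ± 0.329% of other clonotypes (SD, n = 8). Serine stood there in 87.1 ± 3.74% of TRBV13-1 and 80.6 ± 4.89% of TRBV13-3 clonotypes. Arginine stood there in 7.17 ± 2.40% of TRBV13-1, 0.335 ± 0.255% of TRBV13-2 and 11.8 ± 2.89% of TRBV13-3 clonotypes, and was higher with TRBV13-3 than with TRBV13-1 in 8 of 8 libraries. Residue 5 was aspartate in 39.9 ± 2.88% of TRBV13-1, 51.7 ± 2.91% of TRBV13-2 and 38.0 ± 4.78% of TRBV13-3 clonotypes, against 3.41 ± 0.706% of other clonotypes. Aspartate at residue 5 was more frequent with TRBV13-2 than with either other gene in 8 of 8 libraries.

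The V end could be followed to base 16 of CDR3 for TRBV13-1, to base 17 for TRBV13-2 and to base 14 for TRBV13-3. Each base was judged only among the chains that matched all earlier bases, which were 1060 of 3834 at base 17 of TRBV13-2. Alanine at residue 6, to which base 17 belongs, was found in 13.1 ± 3.48%, 20.3 ± 2.31% and 7.44 ± 2.38% of TRBV13-1, TRBV13-2 and TRBV13-3 clonotypes. Arginine at residue 6 was found in 7.83 ± 2.03%, 8.79 ± 1.74% and 14.2 ± 2.69% of them, again in the order of the gene names. These shares are descriptions of the sequence, with no test. Tryptophan at or after residue 5 was found in 9.53 ± 1.93% of TRBV13-1, 13.1 ± 1.74% of TRBV13-2 and 10.5 ± 1.16% of TRBV13-3 clonotypes, beside 12.3 ± 0.929% of other clonotypes.

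CDR3 beta length was close in the 3 genes, with means of 41.3 ± 0.370 bases for TRBV13-1, 41.5 ± 0.283 bases for TRBV13-2 and 41.3 ± 0.176 bases for TRBV13-3 (SD, n = 8). The widest difference, -0.233 ± 0.288 bases between TRBV13-3 and TRBV13-2, had a two-sided exact permutation p of 0.0703 and an adjusted p of 0.211. CDR3 of 16 or more residues made up 8.36 ± 2.92%, 10.3 ± 1.71% and 7.89 ± 1.05% of TRBV13-1, TRBV13-2 and TRBV13-3 clonotypes. The longest class was thus larger with TRBV13-2 than with TRBV13-3, and this held in 8 of 8 libraries. Bases that neither the V end nor the J end encoded numbered 9.54 ± 0.238, 9.45 ± 0.256 and 10.2 ± 0.252 in TRBV13-1, TRBV13-2 and TRBV13-3. These counts include bases encoded by a D segment. TRBV13-1 was below TRBV13-3 in 8 of 8 libraries, with a difference of -0.627 ± 0.387 bases. Its exact permutation p was 0.0078, the smallest that 8 libraries allow, and its adjusted p of 0.0625 did not pass. With 24 tests adjusted together, even this smallest p passes only if several other tests also have small p. The adjusted p thus cannot decide against this difference. With a looser rule for where the V segment ends, added after the values were seen, TRBV13-3 gained bases up to base 16 and the difference was -0.233 bases (exact permutation test, adjusted p 0.412).

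The depth behind a chain was highest with TRBV13-1. The median TRB contig of TRBV13-1 had 17.5 ± 4.11 UMIs, of TRBV13-2 13.6 ± 3.37 and of TRBV13-3 13.8 ± 2.31 (mean and SD of 8 library medians), with 13.5 ± 2.51 for other TRBV genes. TRBV13-1 was above TRBV13-2 in 8 of 8 libraries, by 3.94 ± 1.02 UMIs, and above TRBV13-3 in 8 of 8, by 3.75 ± 1.98 UMIs. Both had a two-sided exact permutation p of 0.0078, the smallest possible, and an adjusted p of 0.0625, so neither passed. Among the 24 tests adjusted together, a test at this smallest p passes only if several others also have small p. The adjusted p thus cannot decide against a difference seen in 8 of 8 libraries. UMIs of a contig depend on capture and assembly as well as on RNA, and the part of each was not tested. A second TRA chain was found in 6.58 ± 1.99%, 6.02 ± 1.71% and 6.85 ± 2.75% of TRBV13-1, TRBV13-2 and TRBV13-3 clonotypes, with adjusted p of 0.5 or more between the genes by the exact permutation test.

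Few beta chains recurred between libraries. Of distinct beta chains (V, J and CDR3 nucleotides), 18 of 1801 with TRBV13-1 (0.999%, 95% Clopper-Pearson interval 0.593 to 1.57%), 63 of 3834 with TRBV13-2 (1.64%, 1.26 to 2.10%) and 8 of 1866 with TRBV13-3 (0.429%, 0.185 to 0.843%) were found in 2 or more libraries, against 264 of 20739 with other genes (1.27%). Chances of a match grow with the number of chains, so the counts of the genes are not on one footing. Shared chains had fewer bases outside the germline ends, with medians of 7, 6 and 7.5 for TRBV13-1, TRBV13-2 and TRBV13-3, beside 10 for the chains of each gene found in 1 library. For each gene the chains found in the most libraries are printed, with capitals for bases outside the V and J ends as placed here.
TRBV13-2 with TRBJ2-5, 4 libraries: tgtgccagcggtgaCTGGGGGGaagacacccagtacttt
TRBV13-2 with TRBJ2-4, 4 libraries: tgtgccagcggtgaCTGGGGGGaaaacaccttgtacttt
TRBV13-2 with TRBJ2-7, 3 libraries: tgtgccagcggtgatgaacagtacttc
TRBV13-1 with TRBJ2-5, 3 libraries: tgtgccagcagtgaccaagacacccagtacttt
TRBV13-3 with TRBJ1-1, 3 libraries: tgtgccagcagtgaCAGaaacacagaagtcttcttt

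The TRBV13-2 chains joined to TRBJ2-5 and to TRBJ2-4 carried the same 8 bases between V and J, and the TRBV13-2 chain with TRBJ2-7 and the TRBV13-1 chain with TRBJ2-5 carried none. Each was found with several alpha chains: the TRBJ2-5 chain of TRBV13-2 formed 5 clonotypes with 5 alpha CDR3 sequences, and the TRBV13-1 chain formed 4 clonotypes with 4. None of these 5 chains had more cells than clonotypes, so they were single cells in each clonotype. Both of the other TRBV13-2 chains among the first 5 by this rule were in 3 libraries (with TRBJ1-3 and TRBJ2-7), and the remaining 8 chains of TRBV13-1 and TRBV13-3 were in 2.

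Clone size was read from the percentage of a gene's cells whose clonotype held at least 1 other cell. It was taken as the mean expected when every library is reduced to 2647 cells. This expanded share was 22.0 ± 9.36% for TRBV13-1, 23.1 ± 9.28% for TRBV13-2 and 23.1 ± 8.11% for TRBV13-3 (SD, n = 8). For the family it was 23 ± 8.54%, beside 23.9 ± 9.57% for other TRBV genes, a difference of -0.865 ± 2.54 percentage points (exact permutation p 0.438, adjusted p 0.651). The spread between libraries was wider than any difference between genes. In all, 811 of 8029 TRBV13 clonotypes had 2 or more cells, and 35 had 10 or more (8, 18 and 9 for TRBV13-1, TRBV13-2 and TRBV13-3).

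The large clonotypes were not spread evenly. In experiment 2 the WT anti-4-1BB library held 11 TRBV13 clonotypes of 10 or more cells, with 284 cells. The KO anti-4-1BB and KO IgG libraries of experiment 2 held 7 each, with 122 and 109 cells, and the WT IgG library held 2. In experiment 1 the numbers were 0 (KO anti-4-1BB), 2 (KO IgG), 3 (WT anti-4-1BB) and 3 (WT IgG). Other TRBV genes were uneven too. In experiment 2 they had 27 (WT anti-4-1BB), 21 (KO anti-4-1BB), 12 (KO IgG) and 7 (WT IgG) such clonotypes. In experiment 1 they had 1 (KO anti-4-1BB), 6 (KO IgG), 10 (WT anti-4-1BB) and 4 (WT IgG). Their largest clonotype had 71 cells, in the experiment 2 KO anti-4-1BB library. The largest TRBV13 clonotype was a TRBV13-1 clonotype of 61 cells in the experiment 2 WT anti-4-1BB library (1.38% of 4432 kept cells, 95% Clopper-Pearson interval 1.05 to 1.76%), with TRBJ1-1 and TRAV14N-1 joined to TRAJ4. The 3 largest TRBV13-2 clonotypes, of 41, 39 and 32 cells, came from the same library, and the largest TRBV13-3 clonotype, of 31 cells, from the experiment 2 KO IgG library. The beta chain of the largest clonotype of each gene is printed, with capitals for bases outside the V and J ends as placed here. For TRBV13-3 the V end was placed at base 14, and at base 16 under the looser rule. The first capitals of its chain thus depend on the rule and may be encoded by V.
TRBV13-1 clonotype of 61 cells, beta: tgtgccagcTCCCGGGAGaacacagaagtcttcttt
TRBV13-2 clonotype of 41 cells, beta: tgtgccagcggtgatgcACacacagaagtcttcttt
TRBV13-3 clonotype of 31 cells, beta: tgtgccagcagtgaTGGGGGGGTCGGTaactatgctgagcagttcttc

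In experiment 1 the expanded share of TRBV13 cells was 17.8% with anti-4-1BB and 23.4% with IgG in KO mice, and 12.4% with anti-4-1BB and 19.5% with IgG in WT mice. In experiment 2 it was 26.7% with anti-4-1BB and 22.9% with IgG in KO mice, and 41.3% with anti-4-1BB and 20.0% with IgG in WT mice. It was thus lower with anti-4-1BB in both pairs of experiment 1 and higher in both pairs of experiment 2. Over the 4 pairs the difference was 3.11 ± 13.1 percentage points (SD; two-sided exact permutation p 0.875, where the smallest that 16 arrangements allow is 0.12). Between KO and WT the difference was -0.598 ± 9.37 points (exact permutation p 1). Other TRBV genes moved in the same way, with 42.3% in the experiment 2 WT anti-4-1BB library and 11.9% in that of experiment 1.

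**Figure D5:**
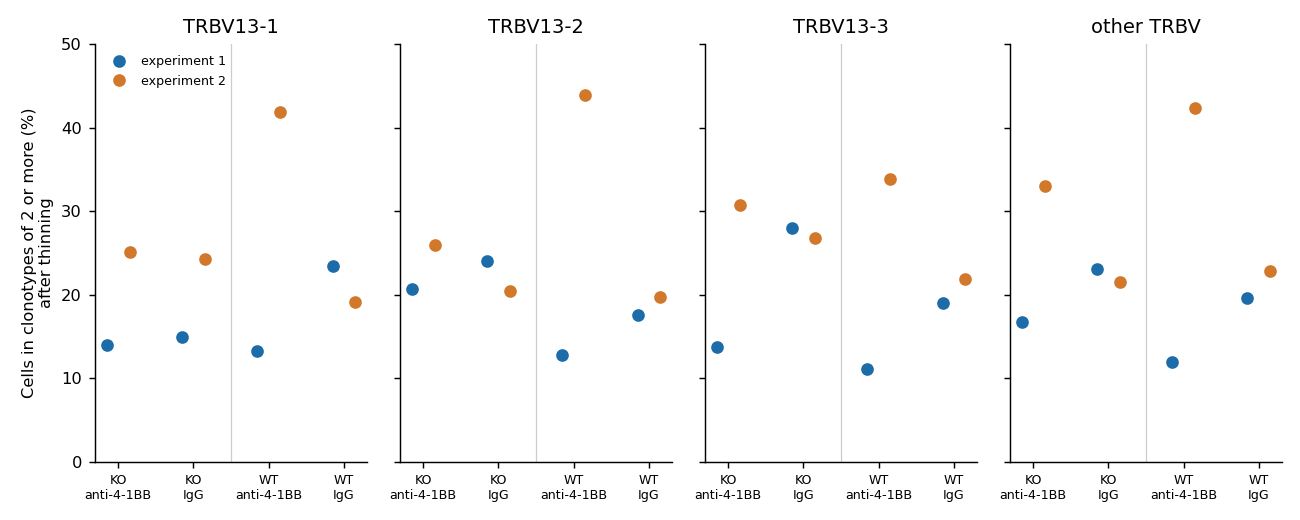
Expanded share (%, y axis), the cells whose clonotype held at least 1 other cell after thinning, in the 4 groups (x axis), for each TRBV13 gene and for other TRBV genes; each point is 1 library, coloured by experiment. The WT anti-4-1BB library is the lowest of experiment 1 and the highest of experiment 2 for each of the 3 genes and for other TRBV genes.

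The family's share of clonotypes followed the experiments in the same way. The difference between anti-4-1BB and IgG was -5.12 percentage points in experiment 1 and 1.01 in experiment 2, and -2.05 ± 3.62 over the 4 pairs (SD; two-sided exact permutation p 0.5). Between KO and WT it was 0.335 ± 1.32 points (exact permutation p 0.75).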

How the data were processed

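TCR contigs of 8 single-cell libraries were analysed, and the 8 gene expression libraries of the same samples were not analysed here. Per the submitters' processing notes, Cell Ranger 7.1.0, bcl2fastq 2.20.0, Seurat and the build GRCm38 were used; for the V(D)J reference the source is not given in the sources used here. The deposited files list, per the file headers, V and J labels, CDR sequences and counts of reads and UMIs for each contig. Positions came from the GRCm38.p6 annotation, in which 165 of 166 V and J labels matched.

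Of 74368 cells, 38108 had 1 TRB with 1 or 2 TRA chains, and 231 of these with TRAV11-TRAJ18 were left out, 148 of them TRBV13. Cells with more chains, which include possible doublets, were not used. The members and lists were chosen with earlier results of these data known. Segments with 10 or more clonotypes in at least 2 libraries entered the segment fits; partner segments needed 30 clonotypes in total. Both were fitted with edgeR 4.0.16 (R 4.3.3; quasi-likelihood, Benjamini-Hochberg adjustment over all segments of a contrast, called under 0.05), with all clonotypes of the segment's type as the library size, 4 group means for groups (4 means of treatment by experiment, KO and WT pooled, for contrasts by experiment, with genotype as a term as an alternative) and the library as block for partners. Named partner segments were those called and, in each direction with fewer than 3, the 3 with the smallest p. Named chains were the 5 in the most libraries and the 3 largest clonotypes of a gene. Other measures were compared by two-sided exact permutation tests over all sign patterns of the libraries (24 tests) or 16 arrangements. The fits were first tested on simulated data. Germline ends of CDR3 were extended base by base while a share over 0.6 carried the commonest base. This share was taken only among the chains that matched all earlier bases. Intervals and floors (3 counts) cover counting error only, since cells of 1 mouse are not independent. Alternatives were DESeq2 1.42.0, TMM factors, counting cells instead of clonotypes, no filter, at least 3 UMIs, other treatments of the joined label, the experiment as a block, and each library left out. The replicate number is the experiment, which the labels give as a batch, so it pairs the samples. Python 3.11.15, numpy 2.4.6, pandas 2.3.3, scipy 1.17.1 and matplotlib 3.10.9 were used.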

Additional observations from a re-analysis of the deposited data

Results flagged for a closer look

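The family's share of clonotypes was lower under anti-4-1BB treatment than under IgG in both genotypes of experiment 1, by -5.12 percentage points in the mean, and higher in both genotypes of experiment 2, by 1.01 points. The expanded share of TRBV13 cells moved likewise, with a mean difference of -6.37 points in experiment 1 and 12.6 points in experiment 2. Opposite directions in the experiments drew attention to both, and for these shares the difference between the experiments was not tested.

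Contigs of TRBV13-2 joined to TRBJ1-6 with the CDR3 of 13 residues and aspartate at residue 7 were also found outside the kept cells. There were 22 in the KO anti-4-1BB library and 7 in the KO IgG library of experiment 2, against 1 and 3 in the WT anti-4-1BB and WT IgG libraries of that experiment. In experiment 1 there was 1 in the WT IgG library and 0 in the other 3 libraries. Over all contigs, kept or not, the set made up 0.573% and 0.229% of TRB contigs in the KO anti-4-1BB and KO IgG libraries of experiment 2, and at most 0.077% in any other library. Contigs are not clonotypes: among kept cells, 1 clonotype held 23 of the 42 set cells of that KO anti-4-1BB library. Whether contigs outside the kept cells belong to this clonotype was not tested.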

How the results depend on the processing

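No TRBV13 gene was called for treatment or genotype under any setting, and with the experiment as a replicate block 0 were called in each of 7 contrasts. With no replicate block the exact permutation p of the family's share was 0.2 for treatment (-2.05 percentage points, paired p 0.5) and 0.857 for genotype (0.335, paired p 0.75), and that of the expanded share 0.743 (3.11, paired p 0.875) and 0.943 (-0.598, paired p 1); the differences are the same by construction. Log2 fold changes near 0 changed sign: with TMM factors TRBV13-2 for treatment was 0.059 (0.031 with DESeq2), TRBV13-1 and TRBV13-3 for genotype were 0.0043 and 0.027 (TRBV13-3 0.043 over cells), and for treatment within experiment 2 TRBV13-1 was 0.090 (0.033 with DESeq2, 0.013 with 3 UMIs) and TRBV13-3 was -0.012 over cells. Leaving out 1 library at a time gave, for treatment, -0.15 to 0.033 (TRBV13-2), -0.26 to 0.0098 (TRBV13-3) and, within experiment 2, -0.19 to 0.15 (TRBV13-1), and for genotype -0.27 to 0.10 (TRBV13-1), -0.0017 to 0.18 (TRBV13-2) and -0.18 to 0.11 (TRBV13-3).

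The number of partner segments called moved. For TRBV13-1 against TRBV13-2 it was 4 with TMM factors, 4 with TRAV copies merged, 3 in cells with 1 TRA, and 0 with the joined label left out or without both KO libraries of experiment 2. For TRBV13-3 against TRBV13-2 it was 5 with TMM factors, 4 with no filter, with TRAV copies merged or without both KO libraries, 1 in cells with 1 TRA, and 0 with DESeq2, over cells or with the joined label left out. For TRBV13-1 against TRBV13-3 it was 4 without both KO libraries. For the family it was 5 in cells with 1 TRA or without both KO libraries, 1 with DESeq2 or with the joined label left out, and 0 with no filter or over cells. Leaving out 1 library gave 0 to 2, 0 to 4, 1 to 3 and 0 to 8 calls in these contrasts. The cause was not tested.

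Leaving out the joined label leaves the few TRBV13-2 cells with the label alone, which had fewer UMIs. Differences from TRBV13-2 then were 10.8 (TRBV13-1) and 6.01 (TRBV13-3) points for the TRBJ2 share. They were 16.2 and 17.3 points for the expanded share and 8.25 and 4.50 UMIs, in the same order. For TRBV13-3 they were also 2.90 points for a second TRA and 1.01 bases outside the V and J ends. The log2 fold change of TRAV7N-6 was -0.033 for TRBV13-3. TRBV13-1 minus TRBV13-3 (-0.627 bases, 3.75 UMIs) does not involve the joined label, and its values and unadjusted p stayed the same. Its adjusted p by the exact permutation test was 0.0268 there, because other tests adjusted with it had smaller p. This pass is therefore not a change in the difference itself. The family's difference in bases outside the V and J ends was 0.070 there, 0.0344 over cells and 0.0833 with a germline end at 0.5. TRBV13-1 minus TRBV13-3 in CDR3 length was -0.0312 with 3 UMIs and -0.0941 over cells. TRBV13-1 minus TRBV13-2 in bases outside the V and J ends was -0.103 over cells. The family's second TRA difference was 0.612 over cells. TRBV13-3 minus TRBV13-2 was -0.223 in expanded share with no thinning and -0.0067 in mean log2 UMIs. Leaving out 1 library gave -0.0563 to 0.0825 bases (CDR3 length, TRBV13-1 minus TRBV13-3), -0.586 to 0.309 (second TRA, same pair), -2.47 to 0.541 (expanded share, same pair), -0.892 to 1.45 (expanded share, TRBV13-3 minus TRBV13-2), -0.0714 to 0.5 UMIs (same pair), -2.95 to 6.50 (family expanded share, treatment), -2.58 to 4.06 (the same, genotype) and -0.262 to 0.775 (family share, genotype).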
